A study of Homo sapiens with 12 samples.

Results

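Zinc finger genes of chromosome 19 were followed in cell lines treated with quinacrine (QC), an antimalarial acridine compound. The study describes all of these lines as ovarian cancer lines, and their lineage markers are given below. Protein-coding genes on chromosome 19 with a symbol made of ZNF, a number and an optional letter were taken from the count table, and 246 such genes were found among its 60669 gene identifiers. A gene was kept where every one of the 12 libraries held 10 or more of its counts, which left 157 genes. The members were thus chosen by their counts, so that levels above this minimum are a condition of membership and not a result. The genes just inside it were ZNF331, ZNF442 and ZNF443, each with a lowest count of 10, and those just outside were ZNF382, ZNF540 and ZNF836, each with a lowest count of 8.

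RNA sequencing libraries were compared between QC at 8 µM and vehicle in 3 isogenic families. The chemosensitive lines were HeyA8, SK-OV-3 and OV2008. The chemoresistant partners were HeyA8-MDR (multidrug resistant, described by the study as carboplatin resistant), SK-OV-3-TR (taxol resistant) and C13 (a cisplatin-resistant derivative of OV2008). Each line gave 1 vehicle and 1 QC library, which makes 3 libraries in each of the 4 groups of sensitive or resistant lines with vehicle or QC, and every library came from a treatment of 6 h. Replication therefore rested on the lines, and a change within 1 line had no replicate check. Isogenic partners share a background, so the 6 lines represent only 3 backgrounds. The fit over all 6 lines counted partners as independent, which can make its SE and p-values too small. The labels name no separate cultures, passages or clones of a line.

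Most of these genes encode proteins with an array of C2H2 zinc fingers, each finger reading a few bases of DNA. Many also carry a KRAB domain, which recruits TRIM28 and the histone methyltransferase SETDB1 and thereby silences chromatin, above all at retrotransposons. The family grew by tandem duplication, so that its members lie in long clusters on chromosome 19, and their mRNAs are known as a class for short half-lives. That last property makes them a candidate read on acute changes in transcription or mRNA decay. Bulk RNA measures the balance of synthesis and decay, and less RNA per cell cannot be told apart from fewer cells of a kind.

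Among the 154 genes whose canonical reading frame could be translated, a KRAB-like pattern was found in 124 and not in 30. The KRAB genes had a median of 12 zinc fingers (range, 6 to 29) and the others a median of 8.5 (range, 1 to 20). Transcripts of KRAB genes were AT-rich, with a median GC content of 42.5% against 62.4% in the genes without the pattern, and longer, with a median of 4077.5 against 2749 bases. The median over all 18488 tested genes with a known transcript was 48.6% GC. These sequence classes were not used to choose the genes, and they returned below, where the lines differed.

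Promoter sequence also set the genes apart from the average gene. RefSeq promoters (GRCh38.p14; 250 bases before to 50 bases after the annotated start) were matched by symbol for 142 of the 157 genes. The letters CCGGAA, the core of ETS factor sites, were searched on both strands and stood in 52.1% of these promoters, in 50% of 166 promoters of ZNF genes on other chromosomes and in 17.6% of all 27305 promoters. GGGCGG, the SP1 box, stood in 63.4%, 64.5% and 44.6%, and TATAAA, the TATA box, in 2.11%, 3.01% and 12%. CCAAT stood in 52.1%, 44% and 35.7%. Matches of different motifs can overlap, and a match is a description of the letters and not a site shown to be bound. The promoters held a median of 21 CG dinucleotides, against 14 over all promoters. Thus the typical member had a CG-rich start, and TATAAA was absent from most promoters of every set. The members had passed a count minimum that the set of all promoters had not, and its part was not tested. Promoters are printed for the genes with the smallest p-values described below, ZNF784, ZNF581 and ZNF587B on the lower side and ZNF441 on the higher side, with CCGGAA and GGGCGG of either strand in capitals.
ZNF784, chr19:55624517-55624816, minus strand: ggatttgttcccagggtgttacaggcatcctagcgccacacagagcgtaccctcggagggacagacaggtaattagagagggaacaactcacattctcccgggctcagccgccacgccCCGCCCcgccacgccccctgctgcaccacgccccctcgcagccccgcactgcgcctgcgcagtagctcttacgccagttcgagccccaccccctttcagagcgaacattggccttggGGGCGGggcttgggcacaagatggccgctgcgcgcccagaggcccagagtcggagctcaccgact
ZNF581, chr19:55643399-55643698, plus strand: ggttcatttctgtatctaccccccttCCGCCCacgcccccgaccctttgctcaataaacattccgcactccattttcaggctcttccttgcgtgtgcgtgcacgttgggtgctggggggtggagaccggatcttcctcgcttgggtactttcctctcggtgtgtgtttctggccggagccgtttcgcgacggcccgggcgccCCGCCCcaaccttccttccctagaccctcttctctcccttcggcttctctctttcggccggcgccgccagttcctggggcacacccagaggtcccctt
ZNF587B, chr19:57830049-57830348, plus strand: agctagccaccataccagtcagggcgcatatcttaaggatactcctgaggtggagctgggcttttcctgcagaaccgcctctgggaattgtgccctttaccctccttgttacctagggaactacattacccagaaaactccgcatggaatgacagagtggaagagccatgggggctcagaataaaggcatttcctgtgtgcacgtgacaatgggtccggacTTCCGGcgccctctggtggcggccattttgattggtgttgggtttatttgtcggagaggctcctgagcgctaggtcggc
ZNF441, chr19:11766750-11767049, plus strand: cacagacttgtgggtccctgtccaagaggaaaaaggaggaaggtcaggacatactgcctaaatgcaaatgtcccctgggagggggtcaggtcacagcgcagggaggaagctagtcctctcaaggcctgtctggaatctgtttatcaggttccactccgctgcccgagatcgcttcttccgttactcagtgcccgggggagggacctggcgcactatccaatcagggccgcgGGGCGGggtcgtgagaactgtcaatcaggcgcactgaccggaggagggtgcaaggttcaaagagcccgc
ZNF784 and ZNF581 each held 2 matches of GGGCGG and 0 of CCGGAA, ZNF587B held 1 of CCGGAA and 0 of GGGCGG, and ZNF441 held 1 of GGGCGG and 0 of CCGGAA. Medians with and without CCGGAA lay on the same side of 0 in 5 lines and on opposite sides in SK-OV-3 (-0.03 and 0.02). The 74 genes with it had a median log2 change of -0.39 in HeyA8-MDR and 0.18 in C13, and the 68 without it had -0.59 and 0.07.

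Library totals ranged from 17782556 to 30585059 counts, and the 157 genes together took 0.254% of all counts. Lineage markers fixed as a list were looked up in the vehicle libraries. PAX8 and KRT7, markers of ovarian and Mullerian epithelium, stood at 295 to 552 and 287 to 720 CPM (counts scaled to the library total) in the HeyA8 and SK-OV-3 families but at 7.2 to 19.7 and 13.2 to 25.4 CPM in OV2008 and C13. OV2008 and C13 instead held the squamous markers TP63 (300 and 109 CPM) and KRT5 (10700 and 3080 CPM), which were at 0 to 0.162 and 0 to 56.9 CPM in the other 4 lines. Among markers of other cell types, CD3E of T cells had 0 counts in every vehicle library, COL1A1 and COL1A2 of fibroblasts were at 0.66 to 39.3 and 0 to 7.59 CPM, and CDH5 of endothelium was at 81.6 and 134 CPM in HeyA8 and HeyA8-MDR and at 0.272 to 9.61 CPM elsewhere. WT1 was at 1.39 to 4.38 CPM in all 6 lines and did not separate the families. EPCAM, KRT8 and KRT18, of the same ovarian and Mullerian list, were higher in OV2008 and C13, at 206 to 209, 1840 to 3000 and 1240 to 1980 CPM, than in the other 4 lines, at 0.0472 to 58, 243 to 910 and 193 to 517 CPM. MUC16 was highest in SK-OV-3, at 12 CPM. The HeyA8 QC library stood apart in another way. Over 78 genes at least 8-fold different between the HeyA8 and HeyA8-MDR vehicle libraries, it lay a median of 29.5% of the way from HeyA8 vehicle to HeyA8-MDR vehicle, whereas the QC libraries of the other sensitive lines lay 0.779% (SK-OV-3) and 8.95% (OV2008) of the way to their partners. The HeyA8-MDR QC library lay 15.6% of the way to HeyA8 over the same 78 genes. Over the 50 chromosome 19 ZNF genes at least 2-fold different, the HeyA8 QC library lay 41.9% of the way. Fits over several lines that include HeyA8 are therefore also given without it.

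The summed level of the 157 genes set the SK-OV-3 family apart before any drug, while the HeyA8 and OV2008 families overlapped. In vehicle libraries, normalised by the trimmed mean of M-values (TMM), it was 2303 CPM in HeyA8, 2023 in HeyA8-MDR, 3473 in SK-OV-3, 3102 in SK-OV-3-TR, 2457 in OV2008 and 2134 in C13. Each resistant line was below its sensitive partner, and both SK-OV-3 lines were above the other 4. With QC the sum was 1843 CPM in HeyA8, 1479 in HeyA8-MDR, 3444 in SK-OV-3, 2950 in SK-OV-3-TR, 2516 in OV2008 and 2304 in C13. It was thus lower with QC in both HeyA8 lines and in SK-OV-3-TR, about level in SK-OV-3, and higher in OV2008 and C13.

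**Figure D1:**
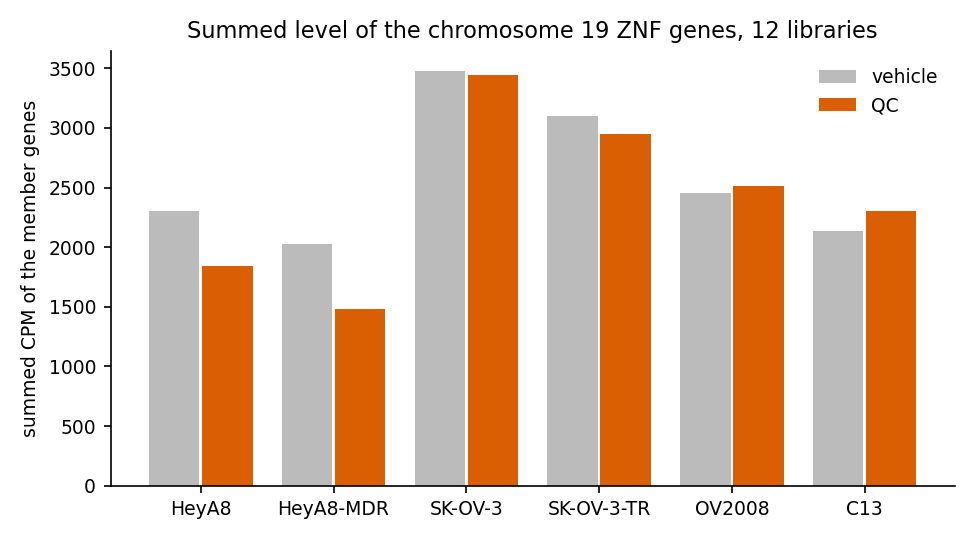
Summed TMM-normalised CPM (y axis, from 0) of the 157 chromosome 19 ZNF genes in each cell line (x axis), with grey bars for vehicle and orange bars for QC, 1 library per bar and so no error bars. The drop is deepest in HeyA8-MDR, from 2023 to 1479 CPM, while C13 goes from 2134 to 2304 CPM.

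Gene by gene the same order appeared. The median log2 change with QC was -0.50 in HeyA8-MDR, -0.25 in HeyA8, -0.08 in SK-OV-3-TR, 0.00 in SK-OV-3, 0.05 in OV2008 and 0.14 in C13. The median over all 18720 tested genes was 0 in each of these lines, or within 0.005 of it in SK-OV-3-TR. In HeyA8-MDR 132 of 157 genes (84.1%) were lower with QC, against 49.4% of all genes, and in HeyA8 115 (73.2%) were lower, against 47.9%. In C13 the balance turned, with 106 genes (67.5%) higher and 47.7% of all genes higher. SK-OV-3 split evenly, with 79 genes lower and 78 higher. The standard deviation of the 6 line medians was 0.231, the HeyA8 lines included. These medians have no test, since each line has 1 library per arm.

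A step of 0.5 on the log2 scale gave the same picture. In HeyA8-MDR 76 genes (48.4%) were lower by at least this step, where 22.7% of all genes were, and 5 (3.18%) were higher by it, against 19.3%. In HeyA8 48 genes (30.6%) were lower by it, against 20.0% of all genes, and 12 (7.64%) higher, against 22.0%. In SK-OV-3 7 genes (4.46%) were lower by it, against 12.3%, and 2 (1.27%) higher, against 11.1%. In SK-OV-3-TR 17 (10.8%) were lower, against 17.3%, and 4 (2.55%) higher, against 13.1%. In OV2008 10 (6.37%) were lower, against 18.8%, and 12 (7.64%) higher, against 21.5%. In C13 7 (4.46%) were lower, against 15.5%, and 29 (18.5%) higher, against 20.4%. Outside the 2 HeyA8 lines, then, shares past the step were below those of all genes in both directions. All genes tested include genes under the members' count minimum, and its part in these shares was not tested. Under the same minimum in SK-OV-3, 2.05% of ZNF genes on other chromosomes were lower by the step and 1.54% higher. Other chromosome 19 genes had 4.05% and 6.41% there. In C13, 23.4% of other chromosome 19 genes were lower by it, and 21.0% of ZNF genes elsewhere were higher.

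**Figure D2:**
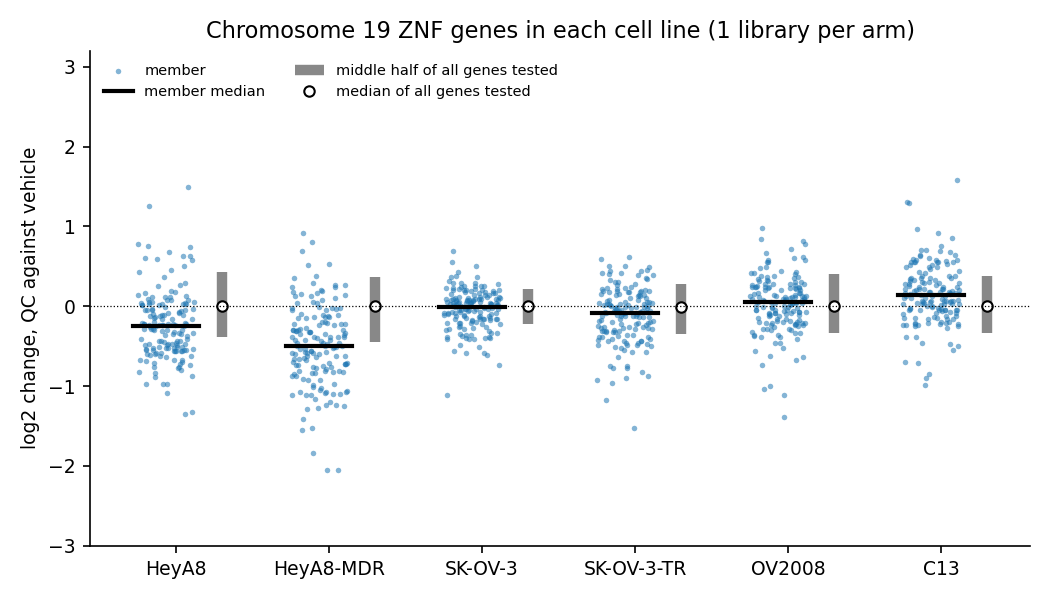
Log2 change of QC against vehicle (y axis) for each of the 157 genes (blue points) in the 6 cell lines (x axis), with the members' median as a black bar and, in grey, the middle 50% of all 18720 tested genes with their median as an open circle. The member median sits at -0.50 in HeyA8-MDR and -0.25 in HeyA8 and within 0.14 of 0 in the other 4 lines.

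The HeyA8 lines bear directly on the library that stood apart. Among the 51 members whose vehicle levels in HeyA8 and HeyA8-MDR lay within 0.25 log2 units of each other, the median change with QC was -0.25 in HeyA8 and -0.63 in HeyA8-MDR. The 66 members that were lower in the HeyA8-MDR vehicle library had a median change of -0.52 in HeyA8, and the 40 that were higher there had 0.07. The change in HeyA8 thus moved with the vehicle difference between the lines, but all 3 classes share the HeyA8 vehicle library with that difference. In HeyA8-MDR the 3 classes had medians of -0.30 (66 members), -0.63 (51) and -0.57 (40), each below 0. There the classes share the HeyA8-MDR vehicle library with the change, so the same limit holds.

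Transcript composition moved with the change in some lines. After correction for GC content and transcript length over all genes, the member median was -0.56 in HeyA8-MDR, -0.17 in HeyA8, -0.12 in SK-OV-3-TR, -0.02 in SK-OV-3, -0.03 in OV2008 and 0.13 in C13. HeyA8-MDR was thus as low with the correction as without it, and OV2008 changed sign. Genes with and without the KRAB pattern had similar medians in HeyA8-MDR, at -0.50 (124 genes) and -0.47 (30 genes), and in HeyA8, at -0.27 and -0.23. They parted in C13, where KRAB genes had a median of 0.19, with 94 of 124 higher, and the other genes -0.18, with 21 of 30 lower. The corrected medians in C13 were 0.16 and -0.05. They also parted in SK-OV-3, at -0.04 and 0.14. Across members, Spearman's rho of the change in C13 was -0.33 with GC content (155 genes), 0.31 with transcript length (155) and 0.22 with the number of fingers (154). In HeyA8-MDR these were -0.15, -0.07 and -0.04. The points of each correlation share the same 2 libraries.

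Position along the chromosome was examined in 7 clusters with at least 9 members, a cluster being a run of ZNF genes with at most 3 other protein-coding genes between neighbours (gene order of GRCh37). In HeyA8-MDR every cluster had a negative median. It was lowest in the run from ZNF264 to ZNF446 near the end of the long arm, at -0.71 with 32 of 35 members lower, and it was highest in the run from ZNF577 to ZNF331, at -0.22 with 14 of 22 lower. HeyA8 showed another order. The run from ZNF101 to ZNF254 had a median of -0.70 with 9 of 9 lower, the run from ZNF283 to ZNF180 had -0.45 with 16 of 16 lower, and the run from ZNF653 to ZNF791 had 0.10 with 4 of 16 lower. In SK-OV-3-TR the run from ZNF264 to ZNF446 stood at -0.36 with 29 of 35 lower, whereas the other 6 clusters lay between -0.13 and 0.12. In C13 all 7 medians were above 0, from 0.06 to 0.29. Differences between clusters were not tested.

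**Figure D3:**
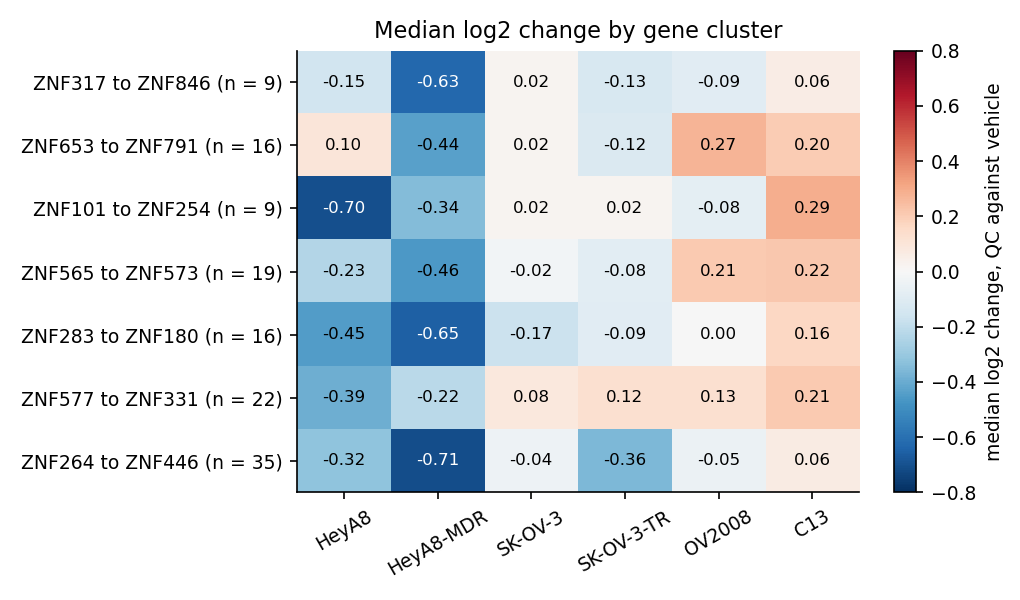
Median log2 change of QC against vehicle (colour and printed value) for 7 runs of neighbouring chromosome 19 ZNF genes (rows, in chromosome order, n is the number of members) in the 6 lines (columns). The HeyA8-MDR column is negative in every row, from -0.22 to -0.71, and the C13 column is positive in every row.

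The fit over all 6 lines asked which genes changed with QC against the line's own vehicle library. By edgeR's quasi-likelihood test with the line as a term, 1 member rose and 10 fell at an unadjusted p under 0.05, the threshold of the study. These are 11 of 157, in each direction a smaller share than among all 18720 genes, where 7.99% rose and 7.18% fell. None passed after Benjamini-Hochberg adjustment over all genes (smallest adjusted p = 0.141). By DESeq2 3 of 157 members did, beside 518 of all 18720 genes, which is not a larger share for the members. The median log2 change was -0.10 over the members (-0.08 without HeyA8, with 8 genes called, -0.05 without HeyA8-MDR, with 8, and -0.19 without C13, with 17) and 0.00 over all genes, and 71.3% of the members had a fitted value below 0. The verbs below refer to the unadjusted threshold. Where a line or family is left out or another setting is used, the share of all genes called at this threshold was not taken, here and below. Such counts of members have no background beside them.

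ZNF784 had the smallest p. Its level went with QC from 4.74 to 2.38 CPM in HeyA8, from 4.88 to 1.3 in HeyA8-MDR, from 6.11 to 4.04 in SK-OV-3, from 4.43 to 2.23 in SK-OV-3-TR, from 8.91 to 3.35 in OV2008 and from 6.19 to 3.39 in C13. Every QC library was below every vehicle library. The log2 change was -1.11 ± 0.22 (SE, 6 lines; edgeR adjusted p = 0.1406), that is to 0.465 of the vehicle level. The protein has no KRAB pattern and 6 fingers, and the transcript is GC-rich at 64.8%.

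ZNF581, a short 4-finger protein without the KRAB pattern, went from 43 to 23.4 CPM in HeyA8, from 55.7 to 35.4 in HeyA8-MDR, from 24.9 to 19.7 in SK-OV-3, from 32.1 to 21.5 in SK-OV-3-TR, from 20.8 to 20.6 in OV2008 and from 28 to 17.1 in C13. It was lower in all 6 lines, by little in OV2008, and the ranges of vehicle and QC libraries overlapped. Its log2 change was -0.53 ± 0.14 (SE; edgeR adjusted p = 0.1574).

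ZNF587B, a KRAB gene of the last cluster, went from 20.5 to 10.4 CPM in HeyA8, from 17.4 to 4.15 in HeyA8-MDR, from 11 to 11.7 in SK-OV-3, from 6.35 to 3.55 in SK-OV-3-TR, from 20.4 to 12.2 in OV2008 and from 18.5 to 13 in C13. SK-OV-3 was the exception among 6 lines. Its log2 change was -0.82 ± 0.23 (SE; edgeR adjusted p = 0.1708). ZNF587B has a close paralogue, ZNF587, and how reads shared between them were counted was not tested.

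ZNF579, ZNF121 and ZNF460 followed, with log2 changes of -0.65 ± 0.20, -0.36 ± 0.12 and -0.65 ± 0.22 (SE). ZNF579, another gene with a GC-rich transcript (66%), was lower in 5 of 6 lines and went from 9.08 to 11.7 CPM in SK-OV-3. ZNF121 was lower in every line and had the highest level of the 3, at 33.9 to 144 CPM in vehicle. ZNF460 was lower in 5 of 6 lines, with 3.83 and 3.84 CPM in C13. Adjusted p-values of the 3 genes were 0.1863, 0.1945 and 0.2128 by edgeR.

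ZNF441, a 14-finger KRAB gene, was the only member that rose. It went from 4.52 to 7.27 CPM in HeyA8, from 4.05 to 5.81 in HeyA8-MDR, from 5.77 to 6.27 in SK-OV-3, from 12.7 to 10.6 in SK-OV-3-TR, from 4.98 to 9.88 in OV2008 and from 6.13 to 15.1 in C13. It was higher in 5 of 6 lines, and the ranges overlapped. The log2 change was 0.56 ± 0.22 (SE; edgeR adjusted p = 0.2651). The next genes on this side did not pass the unadjusted threshold: ZNF585A had 0.37 ± 0.19, ZNF616 0.24 ± 0.14, ZNF28 0.23 ± 0.15, ZNF580 0.22 ± 0.15 and ZNF653 0.32 ± 0.22 (SE). ZNF616 was nonetheless higher in all 6 lines, from 6.56 to 9.8 CPM in HeyA8 at the most and from 11.3 to 11.8 in OV2008 at the least.

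**Figure D4:**
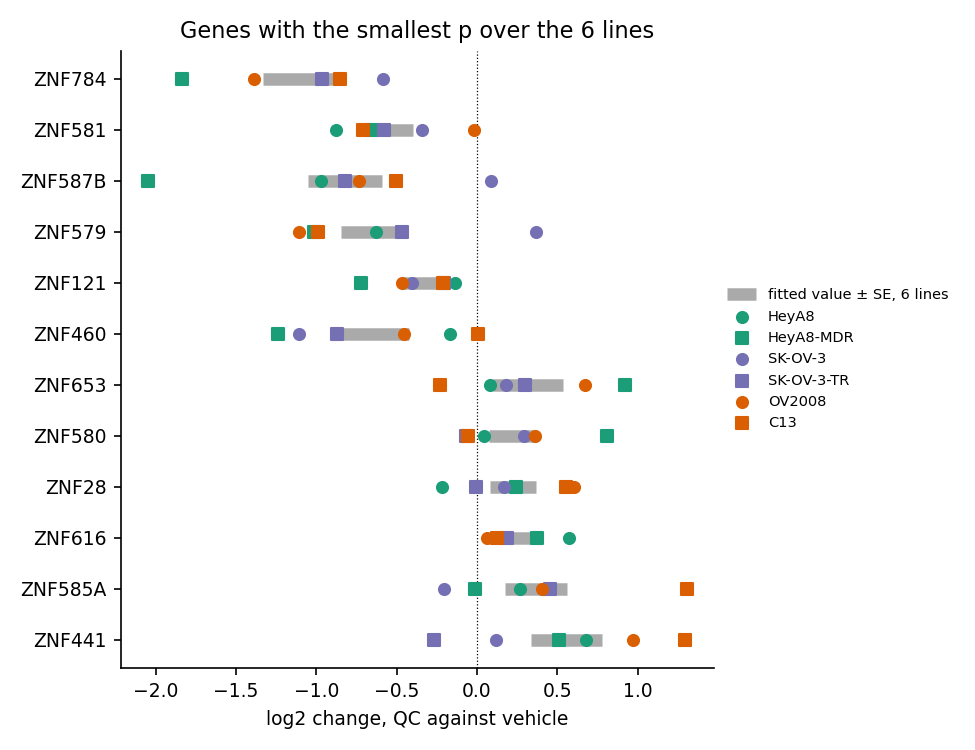
Log2 change of QC against vehicle (x axis) in each cell line for the 6 lower and 6 higher chromosome 19 ZNF genes with the smallest p over the 6 lines (y axis), circles for sensitive and squares for resistant lines, one colour per family, and a grey bar for the fitted value ± SE. ZNF784 lies left of 0 in all 6 lines and ZNF616 right of 0 in all 6, while ZNF587B and ZNF579 have SK-OV-3 right of 0.

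Direction was the same in all 6 lines for 14 members. Of these, 12 (7.64%) were lower throughout, where 4.60% of all genes were, and 2 (1.27%) were higher throughout, where 4.13% were. Under the same count minimum, 6.15% of ZNF genes on other chromosomes and 9.27% of other chromosome 19 genes were lower throughout. Higher throughout were 1.03% and 2.19% of these sets. Besides ZNF784, ZNF581 and ZNF121, the members lower throughout included ZNF30, ZNF45, ZNF573, ZNF708 and ZNF235 (named after their values were seen). ZNF235 shows how uneven such a change could be, with a log2 change of -2.05 in HeyA8-MDR and -0.97 in HeyA8 but -0.09 in SK-OV-3 and -0.10 in C13. A larger set split by family: 39 members (24.8%) were lower in both HeyA8 lines and higher in both OV2008 and C13. This held for 7.25% of all genes. The opposite arrangement was found in 0 members and in 1340 of all genes. ZNF genes on other chromosomes that met the same minimum had 37 of 195 in the first arrangement and 3 in the opposite one. Other chromosome 19 genes had 26 and 89 of 593. The split was thus also frequent among ZNF genes elsewhere, and no test compared the sets.

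A test of whether the QC effect differed among the 3 families was added after the line values had been seen. It called 18 members (11.5%) at an unadjusted p under 0.05, where 14.0% of all genes were called, and 0 after adjustment (smallest adjusted p = 0.239, edgeR). The share is not above the background. In these 18, which were called for a family difference, the HeyA8 family value was below that of the OV2008 family in every case, as it was in 51.4% of the 2614 genes called. Both families had been seen to differ over the members before the test was added, so this direction is no separate evidence. ZNF714 had the smallest p (0.009965, edgeR; adjusted p = 0.2393), with log2 changes of -1.30 in the HeyA8 family, -0.19 in the SK-OV-3 family and -0.23 in the OV2008 family. ZNF473, which takes part in histone pre-mRNA processing, had -0.83, 0.01 and -0.08, and ZNF441 had 0.61, -0.08 and 1.15. Without HeyA8 the test called 28 members, without SK-OV-3 or SK-OV-3-TR 11, without OV2008 6 and without C13 5.

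QC was then given separate terms for sensitive and resistant lines, the groups the study compared, in 1 fit over all 12 libraries that share an estimate of the spread. In sensitive lines 0 members rose and 1 fell, where 3.55% and 3.04% of all genes did. The gene was ZNF784, at -1.0 ± 0.34 (SE, 3 lines; edgeR adjusted p = 0.6775). In resistant lines 0 members rose and 5 fell, where 3.43% and 2.59% did. They were ZNF784 at -1.22 ± 0.35, ZNF581 at -0.65 ± 0.21, ZNF587B at -1.11 ± 0.33, ZNF579 at -0.83 ± 0.29 and ZNF574. Of these 5, 4 lack the KRAB pattern. The 30 members without it have a median GC content of 62.4%, and the 2 traits were not tested apart. No member passed adjustment in either group (edgeR, smallest adjusted p = 0.677 and 0.816). The median change was -0.08 in sensitive lines (-0.01 without HeyA8) and -0.13 in resistant lines (0.01 without HeyA8-MDR, and -0.31 with 18 members fallen without C13). Without its line of the HeyA8 family, each median was thus near 0. Without SK-OV-3, 7 members were called in sensitive lines, and 2 without HeyA8-MDR or C13; without HeyA8-MDR, 3 were called in resistant lines.

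The difference of the QC effect between resistant and sensitive lines called 0 members in either direction at an unadjusted p under 0.05, where 0.566% of all genes were higher and 0.593% lower in resistant lines. The smallest p-values toward resistant lines belonged to ZNF254, at 0.85 ± 0.47 (SE), and ZNF432, a gene linked to the response to DNA damage, at 0.50 ± 0.30 (SE). On the other side stood ZNF875 at -0.48 ± 0.28 and ZNF554 at -0.76 ± 0.45 (SE). All 4 had an edgeR adjusted p of 0.9998. The median difference over members was -0.06, and -0.02 over all genes. It was -0.14 without HeyA8, 0.12 without HeyA8-MDR, -0.04 without SK-OV-3, -0.03 without SK-OV-3-TR, -0.01 without OV2008 and -0.21 without C13.

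Before drug, levels leaned toward the sensitive lines. In the 6 vehicle libraries, with the family as a term, 70.7% of members were lower in the resistant partner, against 47.8% of all genes, and the median log2 difference, resistant minus sensitive, was -0.23, against 0.03. The median kept its sign without any 1 family, from -0.25 to -0.16. By edgeR 2 members were higher and 4 lower at an unadjusted p under 0.05, where 1.96% and 1.75% of all genes were, and 0 passed adjustment (smallest adjusted p = 0.994). DESeq2 called 12 members at the unadjusted threshold and edgeR called 0 without the HeyA8 family and 2 without the OV2008 family. The shares of all genes were not taken for these settings.

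ZNF480, a KRAB gene, was at 24.5, 48.9 and 16.8 CPM in HeyA8, SK-OV-3 and OV2008 vehicle and at 5.71, 15.9 and 12.5 CPM in their resistant partners. Its means were 30.1 ± 16.7 and 11.4 ± 5.17 CPM (SD, 3 lines each), with every resistant line below its partner and below all sensitive lines. The log2 difference was -1.38 ± 0.46 (SE; edgeR adjusted p = 0.9942). ZNF649, also of the run from ZNF577 to ZNF331, was at 5.36, 24.3 and 7.73 CPM in sensitive and 1.45, 12.9 and 2.63 CPM in resistant lines, a log2 difference of -1.44 ± 0.49 (SE). Its groups overlapped, while each resistant line was below its partner. ZNF699 lay on the other side at 2.35, 9.24 and 8.18 against 10.2, 54 and 10.5 CPM, a difference of 1.70 ± 0.58 (SE), and SK-OV-3-TR carried most of the resistant mean. ZNF442 was at 0.443, 0.837 and 2.74 against 1.77, 3.81 and 5.13 CPM, a difference of 1.68 ± 0.67 (SE), at levels near the count minimum.

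Single lines also lacked particular genes. ZNF331 had the widest range among members, from 31.3 CPM in SK-OV-3 vehicle to 0.433 CPM in C13 vehicle, a 72.3-fold span. C13 held 13 counts with vehicle and 10 with QC, where its parent OV2008 held 278 and 417. ZNF525 spanned 23.4-fold, with 0.831 CPM in HeyA8-MDR and 2.22 in HeyA8 against 16.4 to 19.5 in the other 4 vehicle libraries. ZNF699, described above, spanned 23-fold. Levels per transcript length were highest for ZNF146 (39.3 CPM per kilobase, mean of vehicle libraries), ZNF581 (28.5) and ZNF787 (25.3), all without the KRAB pattern, and the range over the 155 genes with a known length began at 0.577.

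Most of the 89 genes that missed the count minimum in some library reached it in others. Only 4 had fewer than 10 counts in all 12 libraries. At least 1 OV2008 or C13 library was under the minimum for 78 of them, at least 1 HeyA8 or HeyA8-MDR library for 67, and at least 1 SK-OV-3 or SK-OV-3-TR library for 21. At most 3 counts in all 4 libraries of a family, beside 100 or more in every library of another family, were found for 22 genes in the OV2008 family, 8 in the HeyA8 family and 0 in the SK-OV-3 family. A gene could count in more than 1 family. ZNF329, for example, had 0 counts in all 4 OV2008 and C13 libraries, 119 to 480 in HeyA8 libraries and 366 to 885 in SK-OV-3 libraries. ZNF320 was instead low in a single line, with 0 and 1 counts in C13 (vehicle and QC) beside 184 and 240 in OV2008. In OV2008 and C13, 176 to 182 of the 246 genes reached 10 counts, against 233 to 240 in the SK-OV-3 family. The minimum thus selects genes active in every line, and 235 genes had a mean of 10 or more.

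Members with a described function were examined next. ZNF274, which binds the 3′ ends of other zinc finger genes and brings SETDB1 there, had a fitted log2 change of 0.00 ± 0.13 (SE). ZNF420, reported as a regulator of p53, had 0.17 ± 0.15, ZNF224, a transcriptional cofactor of WT1, -0.13 ± 0.18, ZNF507 -0.02 ± 0.15, ZNF331 0.15 ± 0.16, ZNF432 0.01 ± 0.15, ZNF146 0.01 ± 0.15 and ZNF473 -0.29 ± 0.17 (SE, 6 lines each). None of these 8 passed the unadjusted threshold. Single lines went further in both directions, with -1.12 for ZNF473 and 0.69 for ZNF331 in HeyA8-MDR, -0.76 for ZNF146 in HeyA8 and -0.61 for ZNF432 in SK-OV-3, none with a replicate check. ZNF91 and ZNF93, repressors of SVA and LINE-1 retrotransposons, were outside the set. ZNF91 had 290 counts with vehicle in HeyA8 but 1 in HeyA8-MDR, and 67 in OV2008 but 0 in C13, beside 1189 in SK-OV-3 and 947 in SK-OV-3-TR. With QC it had 186, 0, 96, 0, 1080 and 577 counts in that order. The resistant lines HeyA8-MDR and C13 were thus at 0 or 1 count where their partners were at 67 or more. ZNF93 had 0 counts in HeyA8-MDR, OV2008 and C13 with either treatment, ZNF568 had at most 8 in those lines and HeyA8, ZNF382 ranged from 8 to 875 counts over the 12 libraries and ZNF114 from 0 to 1779.

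The corepressors that KRAB proteins use were taken as a list. Of 33 tested genes of this machinery 3 rose and 3 fell over the 6 lines at an unadjusted p under 0.05 (edgeR), or 3 of 33 each way beside 7.99% and 7.18% of all genes, with a median of 0.02. RESF1, a partner of SETDB1, rose by 0.79 ± 0.17 and was higher in all 6 lines, and MORC3, a chromatin ATPase, by 0.51 ± 0.15 in all 6. EHMT2, a histone H3 lysine methyltransferase, had -0.35 ± 0.11 in all 6 lines, and SETDB1 -0.33 ± 0.12 in 5 of 6 (SE). Adjusted p-values were 0.1406, 0.1724, 0.1979 and 0.2173. TRIM28, named after its value was seen, had -0.29 ± 0.12 (SE) and was lower in 5 of 6 lines (adjusted p = 0.2861).

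Other sets showed how far the change belonged to zinc finger genes of chromosome 19. The 195 ZNF genes on other chromosomes that met the same minimum had medians of -0.36 in HeyA8-MDR, -0.22 in HeyA8, -0.06 in SK-OV-3-TR, 0.01 in SK-OV-3, 0.06 in OV2008 and 0.08 in C13, the same order of lines. The 593 other protein-coding genes of chromosome 19 had -0.08, 0.08, 0.00, 0.03, -0.08 and -0.23 in that order of lines. In C13, ZNF genes of chromosome 19 and the remaining genes of the chromosome thus lay on opposite sides of 0. In vehicle libraries the median resistant-minus-sensitive difference was -0.14 for ZNF genes elsewhere and 0.14 for other chromosome 19 genes. No test compared the sets.

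As a read on short-lived transcripts, the members parted from classic short-lived mRNAs over the 6 lines together. By line, both medians had the same sign in SK-OV-3, OV2008 and C13 and opposite signs in the HeyA8 lines and SK-OV-3-TR. The list of 46 immediate-early and feedback genes had 19 that rose and 2 that fell over the 6 lines at an unadjusted p under 0.05 (edgeR), beside 7.99% and 7.18% of all genes. Its median was 0.34. The 157 members had 1 and 10, each a smaller share than of all genes, and a median of -0.10. KLF10, ATF3 and FOS, transcription factors of the early response, had log2 changes of 0.68 ± 0.16, 1.47 ± 0.36 and 1.16 ± 0.29, and GADD45B, a stress-induced gene, 0.56 ± 0.15 (SE; edgeR adjusted p = 0.1486, 0.1526, 0.1529 and 0.1693). By line the median of this list was 0.15 in HeyA8-MDR, 0.14 in HeyA8, 0.19 in SK-OV-3-TR, -0.03 in SK-OV-3, 0.93 in OV2008 and 0.33 in C13. The 30 long-lived housekeeping mRNAs had 0.26, 0.13, 0.38, -0.11, -0.20 and -0.41, with 1 gene risen (PPIA, 0.34 ± 0.15 SE) and 0 fallen over the 6 lines, against the same shares of all genes. In HeyA8-MDR the members were therefore low beside raised housekeeping mRNAs, and in C13 and OV2008 they were above lowered ones. Whether this opposition reflects mRNA half-life was not tested.

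**Figure D5:**
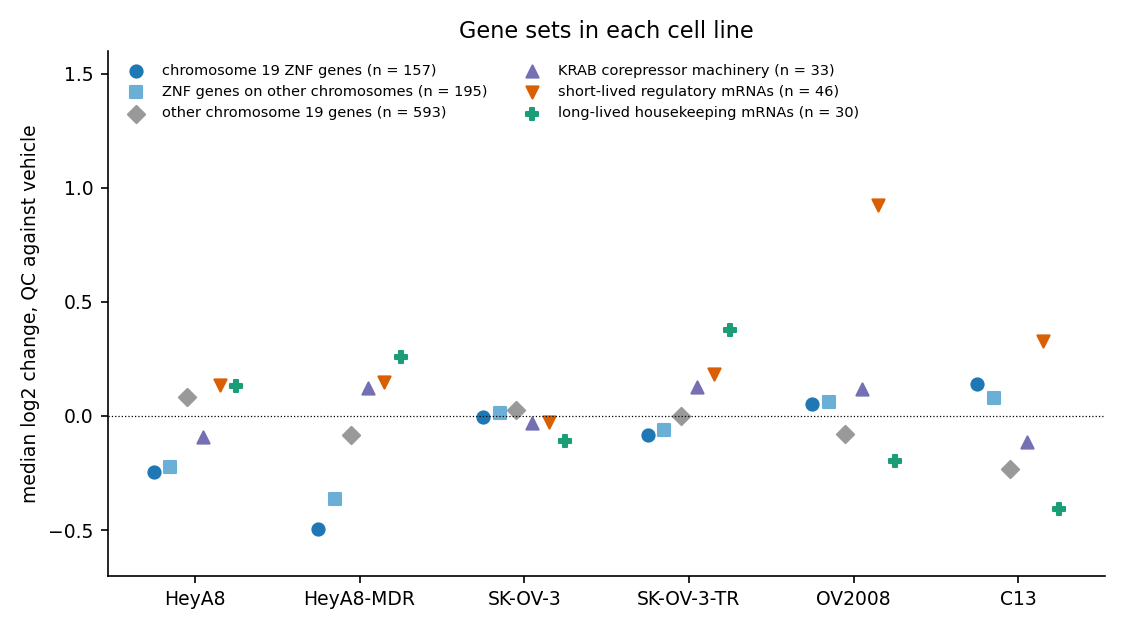
Median log2 change of QC against vehicle (y axis) for 6 gene sets in each cell line (x axis), n being the genes in a set, with no error bars because each line has 1 library per arm. ZNF genes of chromosome 19 and of other chromosomes lie side by side in each line, lowest in HeyA8-MDR at -0.50 and -0.36, while short-lived regulatory mRNAs reach 0.93 in OV2008.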

How the data were processed

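RNA was sequenced from 6 cell lines given QC (8 µM) or vehicle for 6 h. The authors deposited raw read counts per Ensembl gene identifier. The submitters' processing notes name STAR 2.7.3a, HTSeq 0.6.1p1 and GRCh38.p13, whereas the methods of the study give TopHat and hg19, so gene coordinates of the counting are not printed. Strand handling is not given in the sources used here, and overlapping or antisense genes cannot be told apart. Symbols and biotypes came from GENCODE v44 lifted to GRCh37, which paired 58620 identifiers; the 2049 unpaired held 0.132% of counts.

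Counts were filtered with filterByExpr (18720 genes), scaled by TMM and fitted with edgeR 4.0.16 (glmQLFit, glmQLFTest, R 4.3.3; line as a term) on all genes. DESeq2 1.42.0 was an alternative. Vehicle libraries were fitted with the family as a term. The pairing comes from the labels (same line), and deviations of paired libraries correlated at r = 0.893 to 0.929. Changes per line are differences of log2 CPM with a prior count of 2; CPM printed per library have no prior. Adjustment was by Benjamini-Hochberg over all genes. P-values measure the spread between these lines, and the fit over all lines counts the partners of a family as independent. GC content and length were corrected by a loess fit (span 0.5) over 18488 genes. KRAB boxes and fingers were found by sequence pattern in translated canonical transcripts. The fit was tested on simulated counts.

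Genes named are the 6 members with the smallest p over all lines in each direction, the 2 in each other contrast, the 3 highest per length, the 3 with the widest vehicle range, the threshold neighbours, members of known role and up to 4 genes of each list. The members and lists were chosen with earlier results of these data known.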

Additional observations from a re-analysis of the deposited data

Results flagged for a closer look

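The members' median log2 change lay on opposite sides of 0 in 2 families, at -0.247 in HeyA8 and -0.496 in HeyA8-MDR and at 0.05 in OV2008 and 0.139 in C13. In OV2008 the sign depended on the setting: the median was -0.028 after correction for GC content and length and 0 with members chosen by mean count, where C13 had 0.13 and 0.099. The difference between these medians was not tested. OV2008 and C13 also differed from the HeyA8 lines in squamous markers, and the part of lineage in the result was not tested.

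ZNF441, ZNF714 and ZNF473 had a QC effect that differed among the families at an unadjusted p of 0.0251, 0.00996 and 0.0334 (edgeR, test added after the values were seen). None passed adjustment over all genes.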

How the results depend on the processing

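With 1 library per line and treatment, a change in a single line has no error. Depth limits low members: ZNF331 in C13 rests on 13 and 10 counts. Counts of members called at an unadjusted p under 0.05 (edgeR) moved with the fit. The shares of all genes at this threshold were not taken for the changed settings, so these counts are not set against a background. Without the replicate block (cell line or family) they were 1 over all 6 lines instead of 11, 0 in sensitive instead of 1, 0 in resistant instead of 5 and 0 in vehicle instead of 6; the block follows the cell line. Leaving out 1 line at a time gave 8 to 17 over all lines (17 without C13), 1 to 7 in sensitive (7 without SK-OV-3), 3 to 18 in resistant (18 without C13), 0 to 2 for the difference and 5 to 28 for the family test; leaving out 1 family gave 0 to 4 in vehicle. Sensitive lines had 2 with DESeq2 size factors and 2 without a filter, resistant lines 9 with at least 10 counts in every library, the difference 1 with members chosen by mean count, and vehicle 12 by DESeq2. Over all lines, adjusted calls were 0 of all genes by edgeR, 791 without the filter (3 members) and 518 by DESeq2 (3 members). Scaling to RPLP0 moved the median of all genes by 0.28 in SK-OV-3, 0.46 in OV2008 and 0.43 in C13, and the members' medians to 0.29, 0.52 and 0.62; relative to all genes they stayed near or above 0. In HeyA8-MDR and HeyA8 it gave -0.60 and -0.18. With members chosen by mean count (233 tested) HeyA8-MDR was at -0.38. The causes were not tested.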
